A study of Mus musculus with 8 samples.

Results

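Imprinted genes are expressed mainly from 1 parental allele, and the set described here is 10 of them, most with a known part in growth: H19, Igf2, Igf2r, Airn, Peg3, Meg3, Rian, Cdkn1c, Grb10 and Snrpn. They were taken by gene name from the 24341 genes listed for each library, and all 10 were found and passed the filter on low values. They were chosen by their names with the difference between genotypes in these same libraries already known, above all that of H19, Peg3, Meg3 and Rian. Their values by genotype are therefore described. They also entered the test run over all genes, and nothing is read from whether that test called them. The tissue was snap-frozen tibialis anterior, a limb muscle made up mostly of fast fibres, from 8 mice described as male, 12 weeks old and fed chow. The 4 knockout mice (Carm1 skm-/-) carried floxed Carm1 and the HSAcre transgene, with Cre driven by the human skeletal actin promoter in muscle fibres, and the 4 control mice (Carm1 skm+/+) carried floxed Carm1 without it. All 8 mice thus had floxed Carm1, and Cre and the loss of Carm1 came together in every knockout. Carm1 encodes the arginine methyltransferase CARM1, also called PRMT4. Each library is labelled as a biological replicate and was taken as 1 mouse.

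Imprinted genes lie in clusters whose expression is set by a control region that is methylated on the chromosome from 1 parent. In the Igf2-H19 cluster the paternal chromosome expresses Igf2, a growth factor, and the maternal one the non-coding RNA H19. In the Igf2r-Airn cluster the maternal chromosome expresses Igf2r, a receptor that takes IGF2 out of circulation, and the paternal one the antisense RNA Airn. Meg3 and Rian are maternal non-coding RNAs of the Dlk1-Dio3 cluster, which also holds many microRNAs. Peg3, a zinc-finger protein, and Snrpn, a splicing protein, are expressed from the paternal chromosome. Cdkn1c, an inhibitor of cyclin-dependent kinases, and Grb10, an adaptor that dampens insulin and IGF1 receptor signalling, are expressed from the maternal one in most tissues. In muscle H19 is abundant before birth and stays detectable in the adult, and several of these genes are known from work on satellite cells, the muscle stem cells.

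Shown are the 10 mature microRNAs that were matched within H19, Meg3 and Rian on the same strand. These 3 host transcripts were taken because they are among the 4 with the largest log2 differences in size, the other being Peg3. Mir1906-1, whose listed locus also overlaps Meg3, was not among the microRNAs matched. The FPKM values do not measure the mature forms. H19 holds the Mir675 hairpin, which lies in an exon of 3 of its 7 annotated transcripts (GENCODE M21, chromosome 7 from 142577064 to 142577147). Meg3 holds Mir770, in an exon of 1 of 11 transcripts, and Rian holds Mir341, Mir1188 and Mir370 in introns, with none of the 3 in an exon of any of its 20 transcripts. The sequences are from RefSeq (GRCm38.p6), 5′ to 3′, with the seed, bases 2 to 8, in capitals.
mmu-miR-675-5p: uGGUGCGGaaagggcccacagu
mmu-miR-675-3p: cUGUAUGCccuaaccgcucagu
mmu-miR-770-5p: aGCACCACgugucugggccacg
mmu-miR-770-3p: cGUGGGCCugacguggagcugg
mmu-miR-341-5p: cGGUCGGCcgaucgcucgguc
mmu-miR-341-3p: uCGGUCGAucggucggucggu
mmu-miR-1188-5p: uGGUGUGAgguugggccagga
mmu-miR-1188-3p: uCCGAGGCuccccaccacacccugc
mmu-miR-370-5p: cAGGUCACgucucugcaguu
mmu-miR-370-3p: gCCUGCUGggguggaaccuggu
No seed was shared among these 10. The seed of miR-370-5p was also that of 1 other mature microRNA of the table, and the seeds of the other 9 were found in no other.

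The promoters of Peg3, Airn, Meg3 and Rian are shown because the values of these 4 genes did not overlap between the genotypes, as deposited or scaled. Of the 10 genes, 8 matched the RefSeq promoter table (GRCm38.p6, 250 bases before to 50 bases after the start; for genes with several, the window nearest the annotated gene start), and H19 and Cdkn1c did not. Capitals mark the cAMP response element TGACGTCA and the TATA box TATAAA, searched on both strands. These and the other motifs named were chosen after the sequences had been read.
Peg3, chr7:6730370-6730669, minus strand: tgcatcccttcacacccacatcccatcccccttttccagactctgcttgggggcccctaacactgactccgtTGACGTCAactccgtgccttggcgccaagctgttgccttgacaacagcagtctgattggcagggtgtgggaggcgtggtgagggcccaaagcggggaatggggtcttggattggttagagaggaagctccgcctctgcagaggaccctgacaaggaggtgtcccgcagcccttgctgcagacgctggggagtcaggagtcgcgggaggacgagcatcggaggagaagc
Meg3, chr12:109540746-109541045, plus strand: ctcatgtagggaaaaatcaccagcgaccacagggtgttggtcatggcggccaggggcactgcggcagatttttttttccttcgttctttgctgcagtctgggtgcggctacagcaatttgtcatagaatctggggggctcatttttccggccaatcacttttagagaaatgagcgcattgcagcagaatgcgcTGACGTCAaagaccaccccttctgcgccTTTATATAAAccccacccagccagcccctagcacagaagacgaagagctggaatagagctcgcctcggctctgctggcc
Airn, chr17:12741061-12741360, plus strand: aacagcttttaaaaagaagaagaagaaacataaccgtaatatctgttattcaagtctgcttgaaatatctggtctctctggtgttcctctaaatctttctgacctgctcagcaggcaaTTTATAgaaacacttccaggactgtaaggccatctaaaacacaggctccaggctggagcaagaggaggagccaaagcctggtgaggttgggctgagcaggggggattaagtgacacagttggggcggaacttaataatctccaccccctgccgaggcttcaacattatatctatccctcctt
Rian, chr12:109603695-109603994, plus strand: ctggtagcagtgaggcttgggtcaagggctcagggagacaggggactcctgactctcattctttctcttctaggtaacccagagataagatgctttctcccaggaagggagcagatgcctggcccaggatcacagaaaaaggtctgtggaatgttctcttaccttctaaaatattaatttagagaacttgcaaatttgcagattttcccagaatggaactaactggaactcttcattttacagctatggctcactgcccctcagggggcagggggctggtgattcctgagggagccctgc
The element TGACGTCA stood once in the Peg3 window, at position -178 from the start, and once in the Meg3 window, at -57. It was present in 1.79% of the 32851 promoter windows searched and in 2 of the 8 windows of the imprinted genes. TATAAA stood in the Meg3 window at -29 and -25, as overlapping matches on opposite strands, and in the Airn window at -132, against 13.6% of all windows. The E-box CAGCTG (16.3% of all windows) and the YY1 motif GCCATNTT (6.05%) had no match in any of the 8. The Peg3 and Meg3 windows held 13 CpG each, the Airn window 3 and the Rian window 0, beside a median of 7 over all windows.

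Carm1 itself stood between 24.7 and 36.0 FPKM (fragments per kilobase of transcript, scaled to the mapped fragments of the library) in the controls and between 13.5 and 18.4 FPKM in the knockouts (2-sided exact permutation p = 0.0286, the smallest that 70 assignments allow). Xist, the RNA of the inactive X chromosome, stood at 19.6 to 22.9 FPKM in 3 libraries (control 1, knockout 2, knockout 4), with Y-linked Eif2s3y at 0.112 FPKM or less, against the labelled sex. The 5 other libraries held Xist at 0.0662 FPKM or less and Eif2s3y at 42.3 to 58.1 FPKM. Read counts are not given; by the spacing of the low values, every library had at least 81.0% of the depth of the deepest. Markers of muscle fibres, of which 6 of 10 had a usable value in every library, were summed as scaled FPKM (FPKM divided by a factor per library). The sums lay between 47615 and 72359 in the controls and between 32659 and 49020 in the knockouts, with overlap. Of 5 tested fibre markers 4 had a negative log2 difference, knockout minus control, and 1 a positive one. Of 11096 genes tested with limma on log2(scaled FPKM + 1), 22 rose (0.198%) and 18 fell (0.162%) at an adjusted p under 0.05, together 0.36% of the genes tested. The count was 3 in the 5 libraries without Xist, 223 when Xist presence was a covariate, and between 2 (without control 4) and 27 (without knockout 3) when 1 library was left out.

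None of the 10 imprinted genes was among the 40 called, beside the 0.36% of all genes tested. With no adjustment for multiple tests 1454 genes, 13.1% of those tested, had a p under 0.05. With presence of Xist as a covariate limma called 2.01% of the genes tested and 5 of the 10: H19, Peg3 and Airn higher (1.09% of all genes), and Meg3 and Rian lower (0.919%). Without knockout 1 it called 1 of the 10, Meg3, among 7 genes in all. In scaled FPKM, 5 of the 10 had no overlap between the genotypes, 2 higher in the knockout (Peg3 and Airn, 4.67% of all genes tested) and 3 lower (Meg3, Rian and Snrpn, 3.64%), together 8.31% of all genes tested. In the 5 libraries without Xist 6 of the 10 had none, H19 being added, where 31.8% of all genes had none. As the genes were chosen with these values in view, nothing is read from these calls and shares. The median log2 difference of the 10 was -0.02, and that of all genes tested was 0.00 (knockout minus control). The log2 difference was positive for 4 of the 10 and for 49.5% of all genes. In whole muscle a lower value can come from fewer cells of a type or from less RNA per cell, and the 2 cannot be told apart.

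**Figure D1:**
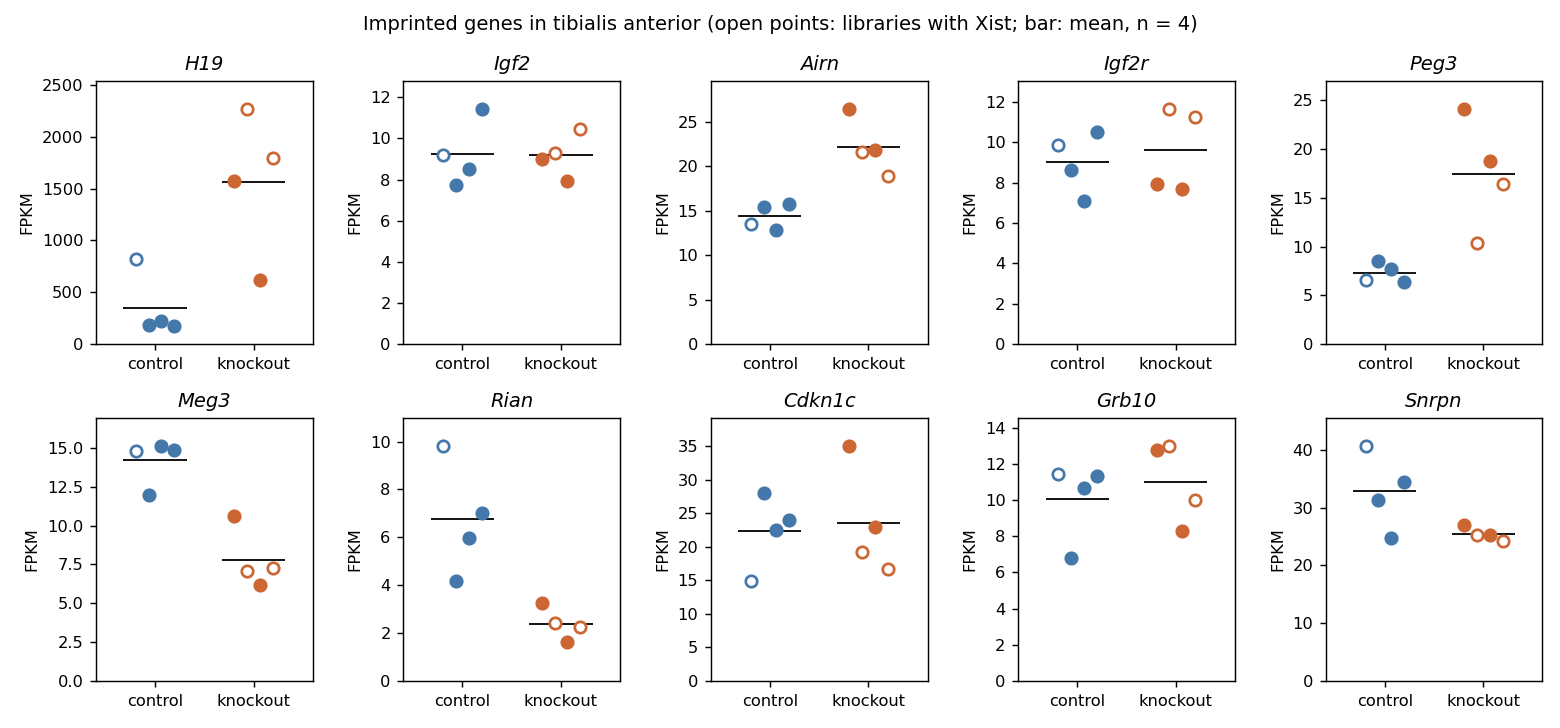
FPKM of the 10 imprinted genes as deposited, 1 point per library, controls in blue and knockouts in orange; open points are the 3 libraries with Xist and the bar is the mean of 4 libraries. The knockout points of Peg3 and Airn all lie above the control points, those of Meg3 and Rian all lie below, and control 1 stands apart from the other controls in H19.

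H19, a long non-coding RNA gene (chromosome 7, 142575530 to 142578146, minus strand, mm10), was the most abundant of the 10 and had the largest log2 difference in size. In FPKM as deposited the controls stood at 819, 188, 220 and 173 (control 1 to 4) and the knockouts at 1575, 2265, 621 and 1797 (knockout 1 to 4). Control 1 was higher than knockout 3, so the genotypes overlapped through this 1 control. Controls 2, 3 and 4 lay close together, and every knockout was above all 3 of them. The scaled FPKM were 361 ± 320 in the controls and 1498 ± 621 in the knockouts (mean ± SD, n = 4 each), 4.15 times as high. The log2 difference was 2.26 (SE 0.54) on the log2(scaled FPKM + 1) scale, and 2.77 without control 1. Control 1 is 1 of the 3 libraries with Xist, and the other 2 of them, knockout 2 and knockout 4, held the highest H19 values of the knockouts. Within the 5 libraries without Xist the controls lay between 173 and 220 FPKM and the knockouts at 1575 and 621. The log2 difference was 2.31 in these 5 libraries and 1.90 in all 8 with Xist as a covariate. The type IIa myosin Myh2 was also highest in the 3 libraries with Xist, at 764, 1540 and 1535 FPKM against 122 to 167 in the other 5, and its part in the level of H19 was not tested.

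Igf2, the growth factor gene of the same cluster (142650768 to 142670356), differed by less than the spread between libraries. Its FPKM were 9.21, 7.71, 8.53 and 11.4 in the controls and 8.997, 9.31, 7.93 and 10.5 in the knockouts, with wide overlap. Its log2 difference was -0.08 (SE 0.10). The ratio of H19 to Igf2 was 89.0, 24.4, 25.7 and 15.2 in the controls and 175, 243, 78.2 and 172 in the knockouts. As with H19 alone, control 1 was the 1 control above a knockout.

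Within 250 kb of the midpoint of H19, 14 genes were listed and 5 were tested, 2 with a positive and 3 with a negative log2 difference, and none was called (limma, with 0.36% called over all genes). All 5 overlapped between the genotypes. Of the 9 not tested, Ifitm10 was higher in each knockout at a low level (0.218 ± 0.0494 and 0.441 ± 0.246 scaled FPKM, mean ± SD, n = 4 each). Tnnt3, Lsp1 and Prr33, which share 1 listed locus, had a status other than OK in 6 of 8 libraries and were listed at 0 there, so their values were not used. The nearest tested gene toward lower coordinates was Nctc1, a non-coding RNA transcribed from the region of the muscle enhancers of the cluster, with its midpoint 25.2 kb away. Its scaled FPKM were 75.3 ± 18.3 in the controls and 85.2 ± 15.5 in the knockouts (mean ± SD, n = 4 each), a log2 difference of 0.19 (SE 0.19, limma adjusted p = 0.725). The nearest on the other side was Igf2, at 83.7 kb.

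Peg3 (chromosome 7, 6705960 to 6730419, minus strand, mm10), at 7.59 ± 1.32 scaled FPKM in the controls, was 2.25 times as high in the knockouts, at 17.1 ± 5.92 (mean ± SD, n = 4 each). As deposited, the controls stood at 6.60, 8.56, 7.70 and 6.38 FPKM and the knockouts at 24.1, 10.4, 18.8 and 16.4 FPKM. Every knockout was above every control, and knockout 2 came nearest to the controls. The log2 difference was 1.02 (SE 0.24), 1.15 with Xist as a covariate and 1.35 in the 5 libraries without Xist. Peg3os, which runs antisense to Peg3 and is listed at the same locus, was also higher in each knockout (3.46 to 7.53 FPKM) than in each control (0.331 to 2.66 FPKM), with a log2 difference of 1.39 (SE 0.32, limma adjusted p = 0.119). The strand of the reads is not given, so reads from Peg3 and Peg3os cannot be told apart. Of the 12 genes listed within 250 kb of Peg3, Peg3os was the 1 that was tested.

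Airn, the antisense RNA of the Igf2r cluster, was higher in the knockouts, while Igf2r overlapped. Its FPKM were 13.5, 15.4, 12.8 and 15.8 in the controls and 26.4, 21.6, 21.8 and 18.9 in the knockouts. The lowest knockout was above the highest control, and knockout 1 was the highest. The scaled FPKM were 14.8 ± 1.02 and 21.6 ± 3.46 (mean ± SD, n = 4 each), 1.46 times as high, with a log2 difference of 0.50 (SE 0.11). Igf2r, on the opposite strand, stood at 9.88, 8.65, 7.10 and 10.5 FPKM in the controls and at 7.92, 11.6, 7.68 and 11.3 FPKM in the knockouts. These values overlapped, and the log2 difference was -0.01 (SE 0.13). The 2 knockouts with Xist were the highest for Igf2r and the 2 without it were lower than 3 of the 4 controls. Airn and Igf2r are listed at 1 shared locus (chromosome 17 from 12682406 to 12868143, mm10), and Airn overlaps the first part of Igf2r on the other strand, so the division of reads between them is an estimate. The ratio of Airn to Igf2r was between 1.36 and 1.81 in the controls and 3.33, 1.86, 2.85 and 1.68 in knockouts 1 to 4, where knockout 4 overlapped the controls.

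Meg3, a long non-coding RNA gene (chromosome 12, 109540996 to 109571729, plus strand, mm10), was lower in the knockouts. As deposited, the controls stood at 14.8, 12.0, 15.1 and 14.9 FPKM and the knockouts at 10.7, 7.10, 6.19 and 7.30 FPKM. The highest knockout, number 1, was below the lowest control, which was control 2. The scaled FPKM were 14.7 ± 1.80 and 7.58 ± 1.91 (mean ± SD, n = 4 each), or 51.6% as high. Its log2 difference was -0.89 (SE 0.15), and it lay between -1.03 and -0.82 when any 1 library was left out.

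Rian, which lies downstream of Meg3 on the same strand (109603945 to 109661711) and hosts small nucleolar RNAs, was lower in the knockouts as well. Its FPKM were 9.82, 4.18, 5.98 and 7.03 in the controls and 3.24, 2.41, 1.62 and 2.26 in the knockouts. The groups did not overlap, and the controls were spread more widely than the knockouts, with control 1 the highest. The scaled FPKM were 6.95 ± 2.35 and 2.30 ± 0.628 (mean ± SD, n = 4 each), 33.1% of the control mean, with a log2 difference of -1.24 (SE 0.22). Without control 1 the log2 difference was -1.06. The ratio of Meg3 to Rian was 1.51, 2.86, 2.53 and 2.12 in the controls and 3.29, 2.95, 3.83 and 3.23 in the knockouts, so Meg3 made up more of the pair in every knockout than in any control. Rian was the 1 tested gene among 72 listed within 250 kb of Meg3, most of which are microRNAs and small nucleolar RNAs. Mirg, the microRNA host gene at the far end of the same run of maternal RNAs, was too low to be tested, at 1.496, 0.548, 1.14 and 1.15 FPKM in the controls and 0.618, 0.479, 0.444 and 0.462 FPKM in the knockouts. Control 2 was the 1 control within the range of the knockouts for Mirg. Dlk1, the paternal gene at the other end of the cluster, lay between 0.139 and 0.376 FPKM in the 8 libraries.

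**Figure D2:**
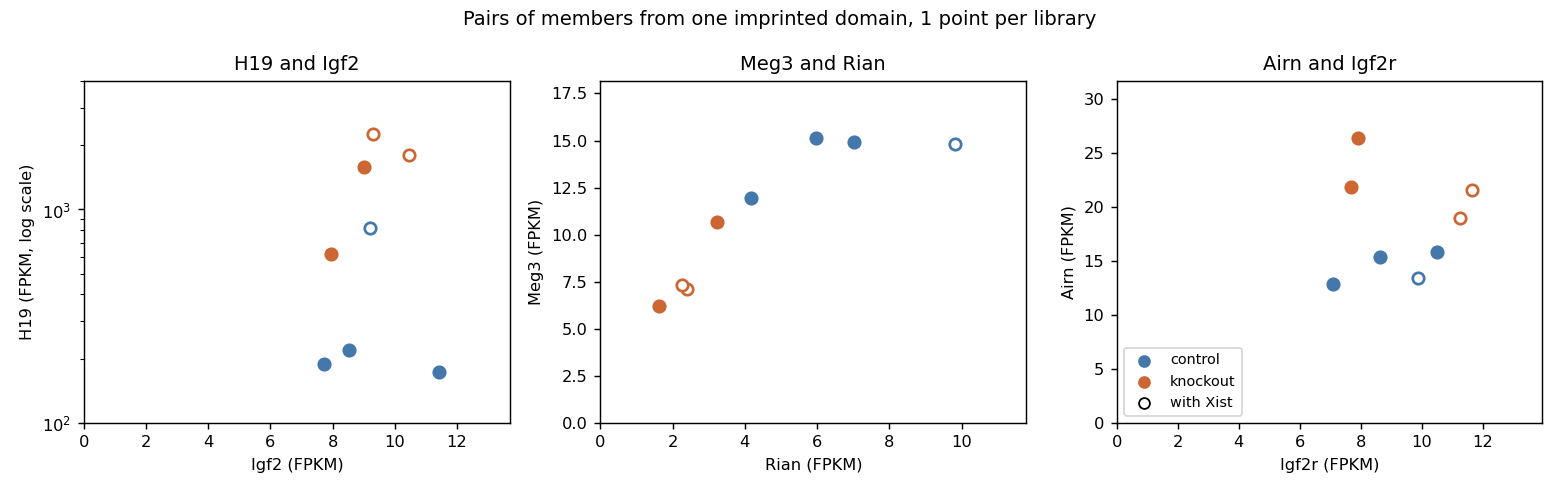
FPKM of H19 against Igf2 (H19 on a log scale), Meg3 against Rian and Airn against Igf2r, 1 point per library, controls in blue, knockouts in orange, libraries with Xist open. Meg3 and Rian were low together in all 4 knockouts, while the knockouts stood higher for Airn and, except for knockout 3 against control 1, for H19, over the same range of Igf2r and Igf2.

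Snrpn (chromosome 7, 59982501 to 60140219, minus strand, mm10) was lower in the knockouts, and whether its groups overlapped depended on the scaling. As deposited, the controls stood at 40.7, 31.4, 24.7 and 34.4 FPKM and the knockouts at 27.0, 25.3, 25.2 and 24.2 FPKM, and control 3 lay within the range of the knockouts. After scaling, at 33.7 ± 5.89 and 24.7 ± 1.80 (mean ± SD, n = 4 each), the groups no longer overlapped. The log2 difference was -0.42 (SE 0.12), and -0.23 in the 5 libraries without Xist. Snurf, which shares the Snrpn transcript and whose reads are divided from it by estimation, had a log2 difference of -0.28 (SE 0.10, limma adjusted p = 0.252), and its scaled values did not overlap. Snhg14, the non-coding RNA downstream of both, had one of -0.26 (SE 0.11, limma adjusted p = 0.374).

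Cdkn1c (chromosome 7, 143458339 to 143461050) and Grb10 (chromosome 11, 11930499 to 12037420), the inhibitors of the cell cycle and of growth factor signalling, overlapped between the genotypes. Cdkn1c stood at 14.9, 28.0, 22.6 and 24.0 FPKM in the controls and 35.1, 19.3, 23.0 and 16.7 FPKM in the knockouts. The 3 libraries with Xist held its 3 lowest values, 1 control and 2 knockouts, and the log2 difference was -0.04 (SE 0.26). Grb10 stood at 11.4, 6.79, 10.7 and 11.3 FPKM in the controls and 12.8, 13.005, 8.29 and 9.999 FPKM in the knockouts, with a log2 difference of 0.04 (SE 0.18). Control 2 was the lowest of the 8 for Grb10.

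**Figure D3:**
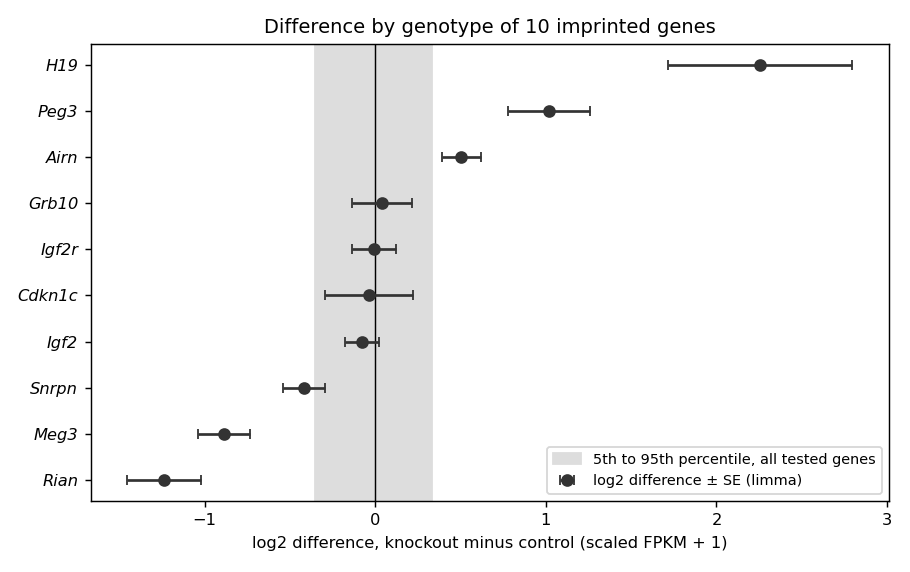
Log2 difference, knockout minus control, of log2(scaled FPKM + 1) for the 10 imprinted genes with the SE from limma; the grey band runs from the 5th to the 95th percentile of all 11096 genes tested (-0.35 to 0.33). H19 (2.26), Peg3 (1.02) and Airn (0.50) lie above the band, Snrpn (-0.42), Meg3 (-0.89) and Rian (-1.24) below it, and the other 4 inside it.

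The order of the 10 by level, which FPKM gives per length, changed between the genotypes. In the controls it ran from H19 (mean 350 FPKM) through Snrpn (32.8), Cdkn1c (22.4), Airn (14.4), Meg3 (14.2), Grb10 (10.1), Igf2 (9.22), Igf2r (9.03) and Peg3 (7.31) to Rian (6.75). Of neighbours in this order, H19 and Snrpn did not overlap across the 4 controls, nor did Meg3 and Grb10, and all the others overlapped. In the knockouts the order was H19 (mean 1565 FPKM), Snrpn (25.4), Cdkn1c (23.5), Airn (22.2), Peg3 (17.4), Grb10 (11.01), Igf2r (9.63), Igf2 (9.17), Meg3 (7.81) and Rian (2.38). There H19 and Snrpn, and Meg3 and Rian, were the neighbours that did not overlap. Peg3 thus stood above Grb10, Igf2 and Igf2r by its mean in the knockouts and below them in the controls, and Meg3 the reverse.

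By the parental origin known for each gene, both kinds were found in both directions. The alleles were not measured in these libraries. Of the 3 genes with the largest positive difference H19 is maternal and Peg3 and Airn are paternal, and of the 3 with the largest negative one Meg3 and Rian are maternal and Snrpn is paternal. In a list of 59 further imprinted genes 58 were named in the files and 26 were tested. None was called by limma (0.36% of all genes were), 4 of the 26 had an unadjusted p under 0.05, where 13.1% of all genes did, and with Xist as a covariate 1 was called, in the lower direction, where 2.01% of all genes were called in either. Their median log2 difference was -0.04, with 12 positive and 14 negative, beside 0.00 over all genes. Of the 32 that were too low to be tested 3 had no overlap between the genotypes as deposited, where 4.8% of all genes under the filter that were above 0 in some library had none. Among the 14 genes listed as maternally expressed the median was -0.05, and Asb4, a substrate adaptor of a ubiquitin ligase, had the smallest p. Asb4 was at 3.82, 4.75, 5.96 and 6.21 FPKM in the controls and 3.09, 2.997, 3.31 and 2.11 FPKM in the knockouts, with a log2 difference of -0.74 (SE 0.16, limma adjusted p = 0.111). Its groups did not overlap. Pon3, a paraoxonase, had a log2 difference of -0.44 (SE 0.21, limma adjusted p = 0.434). The 10 genes listed as paternally expressed had a median of -0.02, and Snurf and Snhg14 had the smallest p among them. Of the 2 tested genes with both maternal and paternal transcripts, Blcap had a log2 difference of -0.24 (SE 0.09, limma adjusted p = 0.277) and Gnas, the stimulatory G protein subunit, one of 0.01 (SE 0.17, limma adjusted p = 0.985).

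**Figure D4:**
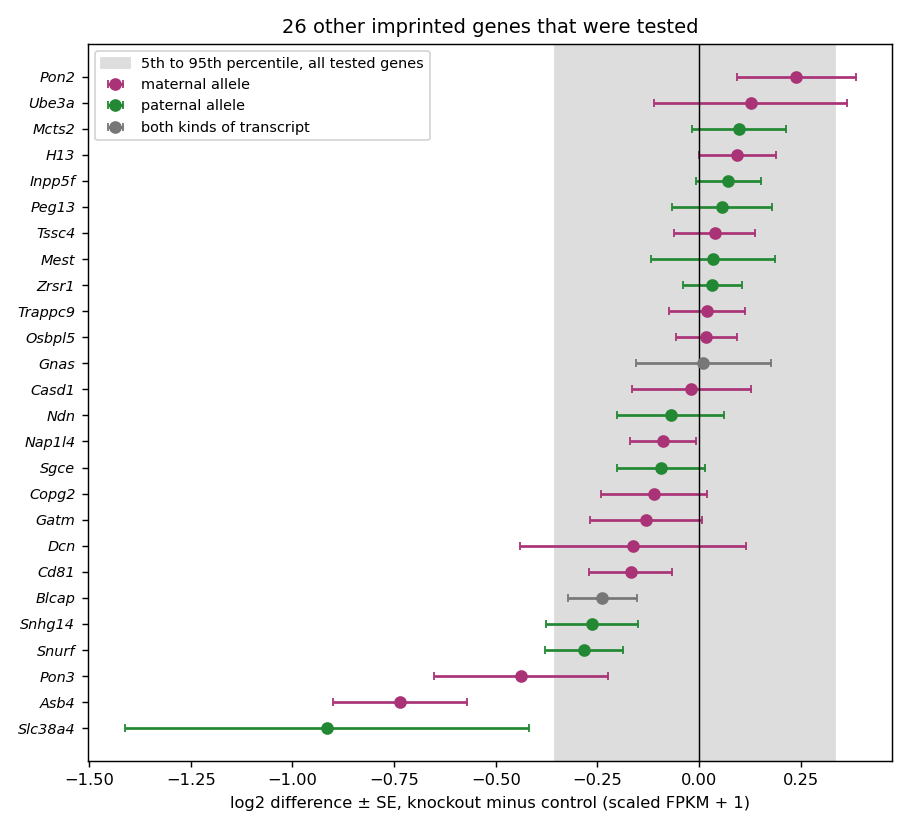
Log2 difference, knockout minus control, with its SE from limma for the 26 other imprinted genes tested. Colours give the allele listed as expressed, which was not measured here. The grey band runs from the 5th to the 95th percentile of all genes tested. The 3 points below the band, Pon3 (-0.44), Asb4 (-0.74) and Slc38a4 (-0.92), did not pass the test.

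Genes that act with or upstream of the 10 gave no call. Of 12 tested genes of the IGF ligands, receptors and binding proteins 0 passed limma, with 1 at an unadjusted p under 0.05 and a median log2 difference of -0.10. Igfbp7, a secreted IGF-binding protein of vessels, had 191 ± 24.5 scaled FPKM in the controls and 149 ± 25.5 in the knockouts (mean ± SD, n = 4 each), a log2 difference of -0.37 (SE 0.14, limma adjusted p = 0.307), and Igfbp4 had one of -0.29 (SE 0.17, limma adjusted p = 0.506). Of 14 factors that maintain imprints 0 passed (1 at an unadjusted p under 0.05), with a median of 0.06. In that list Ehmt1, a histone H3 methyltransferase, had a log2 difference of 0.20 (SE 0.07, limma adjusted p = 0.28) and Dnmt1, the maintenance DNA methyltransferase, one of 0.08 (SE 0.07, limma adjusted p = 0.675). Of 6 other cell cycle inhibitors 0 passed, with none at an unadjusted p under 0.05 and a median of 0.00. Cdkn2d had a log2 difference of -0.13 (SE 0.08, limma adjusted p = 0.501) and Rb1 one of 0.13 (SE 0.10, limma adjusted p = 0.623).

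Markers of the cell types that a muscle sample can hold are given beside these values. The summed scaled FPKM of 11 satellite cell markers lay between 80.1 and 98.8 in the controls and between 66.0 and 95.3 in the knockouts, and 6 of 8 tested markers had a negative log2 difference. Cd34, which is also in the list of fibro-adipogenic cells, was the largest part of each sum, from 38.9 to 61.9 and from 29.3 to 61.0. Pax7, Myf5 and Calcr were too low to be tested and added little, so the sum is not a level of satellite cells. Of 12 tested markers of fibro-adipogenic cells 11 had a negative difference, with sums from 672 to 1110 and from 554 to 885, and all 13 of endothelium did, with sums from 1257 to 1549 and from 976 to 1394. Fabp4 alone made up most of each endothelial sum, from 874 to 1111 and from 639 to 1014. All 11 markers of smooth muscle and pericytes had a negative difference, with sums from 1411 to 1648 and from 1254 to 1573. Most of each of these sums was Des, from 1016 to 1295 and from 916 to 1293, so they largely give the level of this 1 gene. The sums of the markers of regenerating or developing fibres lay between 156 and 460 in the controls and between 132 and 293 in the knockouts, over 9 of 11 markers with a usable value, and 5 of 7 tested markers had a positive difference. Myh8, the perinatal myosin, fell (log2 difference -1.90, called by limma), and Actc1, the cardiac actin, was the other with a negative difference (-1.02), while Myl4, the embryonic light chain, was higher in each knockout after scaling (0.54) without being called, as was Myh3, the embryonic myosin, which was too low to be tested. Most of each sum for this list came from Actc1. Of 8 tested markers of macrophages 7 had a positive difference, with sums from 45.3 to 78.9 and from 39.5 to 73.3, as had 3 of 4 of tendon, while 6 of 7 of Schwann cells and both of adipocytes had a negative one. The control and knockout sums overlapped in each of these lists. No marker with a usable value was under 0.1 scaled FPKM in all libraries, but several stayed under 1 in all of them. The part of these cells in the differences of the 10 genes was not tested.

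Genes were ranked by likeness of pattern over the 8 libraries, by Pearson's r on log2(scaled FPKM + 1). Left out of the ranking were the imprinted genes described here, small RNAs and genes with provisional names. Rian, for example, could therefore not be listed for Meg3. The ranked genes most like H19 were Tdrkh (r = 0.99), Zfp367 (r = 0.99) and Gemin4 (r = 0.98). For Peg3 they were Trpt1 (r = 0.98), Rnaseh2c (r = 0.98) and Galt (r = 0.97). Stx8 (r = 0.97), Fam110a (r = 0.94) and Rars2 (r = 0.93) were most like Meg3, and Fosl2 (r = 0.98), Qsox2 (r = 0.98) and Hmgn2 (r = 0.94) most like Rian. These r were picked as the highest among the genes ranked, over libraries that also differ by genotype. They are given as a description with no test.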

How the data were processed

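Total RNA of tibialis anterior was made into libraries with a TruSeq RNA v2 kit, per the labels' protocols. STAR, Cufflinks and mm10 are named, per the submitters' processing notes, with no version; neither annotation nor strand setting is given in the sources used here. The authors deposited FPKM per gene in the Cufflinks layout, per the file headers, and no counts. Overlapping genes share reads by estimation there. Listed starts were taken as counted from 0.

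The 23 genes whose status was not OK in 1 or more libraries were left out. Each library's FPKM were scaled by a median-of-ratios factor and tested as log2(scaled FPKM + 1), which understates the differences of low genes. A gene entered the fit with 1 scaled FPKM or more in 4 or more libraries, and 11096 did. They were fitted with limma 3.58.1 (R 4.3.3; eBayes with a trend) and adjusted by Benjamini-Hochberg over all of them, with a threshold of 0.05. The fit was tested on simulated data. Carm1 was tested by exact permutation. Python 3.11.15 with pandas 2.3.3, scipy 1.17.1 and matplotlib 3.10.9 did the rest. Each labelled biological replicate was taken as a separate animal.

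The 10 genes and all lists were chosen with earlier results of these data known. Named are the 10 genes, Carm1, Xist and Eif2s3y. In each list up to 3 called genes in either direction are named and, where none was called, the 2 genes of smallest p. Also named are the 3 ranked genes most like H19, Peg3, Meg3 and Rian by Pearson's r. The nearest tested gene on each side of H19, Peg3 and Meg3 is named as well. Peg3os, Mirg, Dlk1, Slc38a4, Zim1, Slc22a3, Atp10a, Slc22a2, Usp29, Ifitm10, Tnnt3, Lsp1, Prr33, Myh2, Myh3, Myh8, Myl4 and Actc1 were named after their values were seen. So were the markers Des, Fabp4, Cd34, Pax7, Myf5 and Calcr. The alternatives tried were to set the pseudocount to 0.1, to drop the filter or ask for a mean of 5 scaled FPKM, to leave the values unscaled or quantile-normalize them, to omit 1 library in turn, to add a replicate block or the presence of Xist (1 FPKM or more) as a term, and to keep the 5 libraries without Xist.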

Additional observations from a re-analysis of the deposited data

Results flagged for a closer look

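In 3 of the 22 groups of 4 libraries examined, the highest or lowest FPKM stood apart from the other 3 by more than Dixon's 95% critical value; chance gives about 1 such group in 20. H19 in control 1 was 819 FPKM, above the 3 other controls, and the log2 difference of H19 without this library was 2.77. Meg3 in control 2 was 12.0 FPKM, below the 3 other controls, yet still above every knockout. Grb10 in control 2 was 6.79 FPKM, below the 3 other controls, and without this library its log2 difference went from 0.04 to -0.12.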

How the results depend on the processing

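The differences of H19, Peg3, Airn, Meg3, Rian and Snrpn kept their sign under each alternative that could be run, 16 for each gene but Rian, whose mean was under the 5 FPKM of 1 alternative. H19 ranged from 1.90 to 2.77, Peg3 from 0.85 to 1.35, Airn from 0.42 to 0.64, Meg3 from -1.03 to -0.75, Rian from -1.53 to -1.03 and Snrpn from -0.51 to -0.23. Those of Igf2, Igf2r, Cdkn1c and Grb10 turned sign under 1, 5, 7 and 3 alternatives and stayed between -0.24 and 0.15. The 40 genes called over all genes became 8 with no filter, 15 at a mean of at least 5 scaled FPKM, 223 with Xist as a covariate, 3 in the 5 libraries without Xist, and between 2 (without control 4) and 27 (without knockout 3) when 1 library was left out, with at most 12 for the 6 others; the cause was not tested. With the replicate number as a block 0 genes were called (limma, 1314 at an unadjusted p under 0.05); the labels do not say that the numbers pair animals, the deviations of same-numbered libraries correlated between -0.43 and 0.35, and 3 of 8 libraries correlated best with their own number. Of the 10 imprinted genes 0 were called, 5 with Xist as a covariate and between 0 and 1 when 1 library was left out (Meg3, without knockout 1). With Xist as a covariate 1 other imprinted gene, which is listed as maternally expressed, was called. The 1 neighbour of Meg3 called there is Rian, already counted among the 5. The difference of Carm1 lay between -1.02 and -0.84 when 1 library was left out (exact permutation p = 0.0571, the smallest possible) and was -0.80 in the 5 libraries without Xist (p = 0.2, the smallest possible); Carm1 was not run under the filters, quantile normalization, the block or the covariate. Scaling moved the median of all genes by less than 0.1 on the log2 scale (0.07 without scaling); without scaling 36 genes were higher and 13 lower, against 22 and 18.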

Other observations

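Of the 58 further imprinted genes named in the files, 32 did not reach the filter and 28 of these stayed under 1 FPKM in all libraries. Among the 32, 3 had no overlap between the genotypes in FPKM as deposited, 2 higher and 1 lower in the knockout. Zim1, a maternally expressed zinc-finger gene of the Peg3 cluster, was at 0.756, 0.665, 0.487 and 0.569 FPKM in the controls and 1.40, 1.39, 0.877 and 1.43 FPKM in the knockouts. Slc22a3, an organic cation transporter gene of the Igf2r-Airn cluster, was at 0.637, 0.768, 0.836 and 0.324 FPKM in the controls and 1.93, 0.979, 1.15 and 1.45 FPKM in the knockouts. After scaling, Slc22a3 overlapped between the genotypes, while Zim1 did not. Slc22a2, beside Igf2r, and Usp29, beside Peg3, overlapped as deposited and after scaling. Atp10a was the 1 that was lower, also after scaling. At these levels the number of reads behind a value is not known, and the values were not tested.

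Slc38a4, a paternally expressed amino acid transporter gene, was lowest in the libraries with Xist of both genotypes: control 1 (6.89 FPKM), knockout 2 (5.02 FPKM) and knockout 4 (5.99 FPKM) were the lowest, and the 5 without Xist ranged from 13.9 to 29.4 FPKM.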
